A study of Homo sapiens with 15 samples.

Results

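The mRNA levels of 10 secreted proteins of the extracellular matrix are described here: the thrombospondins THBS1, THBS2 and THBS3, the calcium-binding proteins SPARC and SPOCK1, the large glycoproteins tenascin C (TNC) and fibronectin (FN1), and the proteoglycans versican (VCAN), perlecan (HSPG2) and agrin (AGRN). The genes were listed by name and found by Ensembl identifier, and all 10 were among the 31352 genes of the deposited table. Of these 10, 7 passed the filter on low counts, as did 15122 genes of the table, and THBS2, SPOCK1 and TNC did not. RNA was measured by poly(A) RNA sequencing in 15 libraries, 3 in each of 5 groups. In 4 groups doxycycline induced the intracellular domain (NICD) of NOTCH1, NOTCH2, NOTCH3 or NOTCH4 (NICD1, NICD2, NICD3 and NICD4). The last group (EV) was an isogenic control with an empty vector. The labels call the cells HCT116, a human colorectal carcinoma line, whereas the sample descriptions and column names say U373, a glioma line. The comparisons ask which genes change with each activated NOTCH receptor.

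Neither the amount of doxycycline nor the time of exposure is given in the labels. Nor do they state whether the EV cells were also exposed, whether a group is 1 clone, or whether the libraries of a group come from separate cultures. P-values therefore measure only the spread between these libraries, and that spread may be technical. NICD4 replicate 1 is NICD4 by its title and description and NICD3 by other label fields, and was kept in NICD4.

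Matricellular proteins such as thrombospondins, SPARC and tenascin C sit in the matrix and modulate how cells attach and respond to growth factors, without being its main scaffold. Proteoglycans carry long sulfated sugar chains on a protein core: chondroitin sulfate on versican, and heparan sulfate mostly in basement membranes on perlecan and agrin. NOTCH receptors are cut upon ligand binding, and the released NICD joins the DNA-binding protein RBPJ in the nucleus to activate target genes.

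Libraries held from 11630195 to 27704492 counted reads. Levels are given in CPM (a library-size-adjusted read count), with library sizes scaled by the trimmed mean of M values, and changes as the difference of mean log2(scaled reads + 1) between groups with its SE from limma. A change was called at an adjusted p under 0.05 over the 15122 genes tested. The added 1 read equals 0.0544 CPM, and it understates changes of genes near that level. HES1, a direct NOTCH target, rose in all 4 NICD groups, by 1.03 to 2.43. Of the receptor genes, NOTCH2 rose in NICD2 (0.42 ± 0.07, adjusted p = 0.000113), and NOTCH1, NOTCH3 and NOTCH4 were not called in their matching groups. NOTCH2 also rose in NICD1 (0.225, adjusted p = 0.00737) and NICD4 (0.36, adjusted p = 0.00016). In other non-matching groups NOTCH3 rose in NICD1 (0.28) and NICD4 (0.44), NOTCH1 changed by -0.40 in NICD3 and NOTCH4 by -0.89 in NICD2, all called. The deposited table does not show which part of a receptor gene its reads come from. The 14 colorectal epithelial markers summed to 9758 to 23440 CPM in NICD libraries, against 2155 to 2736 CPM in EV libraries. The 12 astrocyte and glioma markers summed to 48.8 to 52.9 CPM in NICD1 libraries, below the 55.7 to 58.3 CPM of EV libraries. In NICD2, NICD3 and NICD4 libraries they summed to 64.1 to 87.5 CPM, above EV. The group means of EPCAM, an epithelial marker, were 151 to 280 CPM with an NICD and 153 CPM in EV, and those of GFAP, an astrocyte marker, 0.981 to 4.38 CPM with an NICD and 1.63 CPM in EV. EPCAM was called higher in NICD1, NICD2 and NICD3 (0.535, 0.875 and 0.594) and not called in NICD4 (-0.029). GFAP was called lower in NICD2 (-0.691), higher in NICD3 (0.685) and NICD4 (1.306), and not called in NICD1 (0.361).

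Promoters are shown for the 3 genes that changed by more than 2 on the log2 scale in all 4 NICD groups, THBS1 upward and SPARC and VCAN downward. Each runs from 250 bases before to 50 bases after the annotated start, 5′ to 3′ on the gene's strand, from RefSeq on GRCh38.p14, and capitals mark TEAD motifs. THBS1 lies at chr15:39580829-39581128 on the plus strand, SPARC at chr5:151686866-151687165 on the minus strand, and VCAN at chr5:83471494-83471793 on the plus strand.
THBS1: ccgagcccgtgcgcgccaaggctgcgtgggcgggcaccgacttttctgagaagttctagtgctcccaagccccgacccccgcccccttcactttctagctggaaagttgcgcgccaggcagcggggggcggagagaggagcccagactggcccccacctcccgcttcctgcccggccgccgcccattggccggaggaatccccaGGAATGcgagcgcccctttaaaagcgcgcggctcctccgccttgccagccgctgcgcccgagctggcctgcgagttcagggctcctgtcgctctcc
SPARC: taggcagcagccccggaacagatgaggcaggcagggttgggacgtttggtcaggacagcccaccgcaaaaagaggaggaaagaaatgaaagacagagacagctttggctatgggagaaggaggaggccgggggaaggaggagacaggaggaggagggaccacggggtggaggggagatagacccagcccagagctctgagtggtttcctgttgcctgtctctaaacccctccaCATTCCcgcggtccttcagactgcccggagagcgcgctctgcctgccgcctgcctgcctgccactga
VCAN: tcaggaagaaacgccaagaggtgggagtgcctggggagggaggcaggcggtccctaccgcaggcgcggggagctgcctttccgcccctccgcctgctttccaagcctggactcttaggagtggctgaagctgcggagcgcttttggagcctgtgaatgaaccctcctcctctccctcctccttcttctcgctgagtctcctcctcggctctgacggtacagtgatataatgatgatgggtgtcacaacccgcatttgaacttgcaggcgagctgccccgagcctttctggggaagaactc

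Of the 10 genes, 8 had a promoter in the table used. SPOCK1 and AGRN had none. These 5 motifs were searched on both strands: TGGGAA for RBPJ, TGANTCA for AP-1, GGAATG for TEAD proteins, CAGGTG for ZEB1 and SNAI proteins, and TATAAA for the TATA box. The TEAD motif began 46 bases before the start of THBS1 and, on the opposite strand, 17 bases before the start of SPARC. It also occurred at 2 places in the THBS2 promoter, and 14.0% of 35116 promoters of the same length hold it. The RBPJ motif occurred in THBS3, at 2 places, and in TNC, against 24.0% of all promoters. The ZEB1 and SNAI motif occurred in THBS3 (20.6% of all promoters) and the TATA motif in THBS2 (11.5%). The AP-1 motif was found in none of the 8, and 7.71% of all promoters hold it. The VCAN, FN1 and HSPG2 windows held none of the 5, and no match overlapped another. A match describes letters, not binding.

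**Figure D1:**
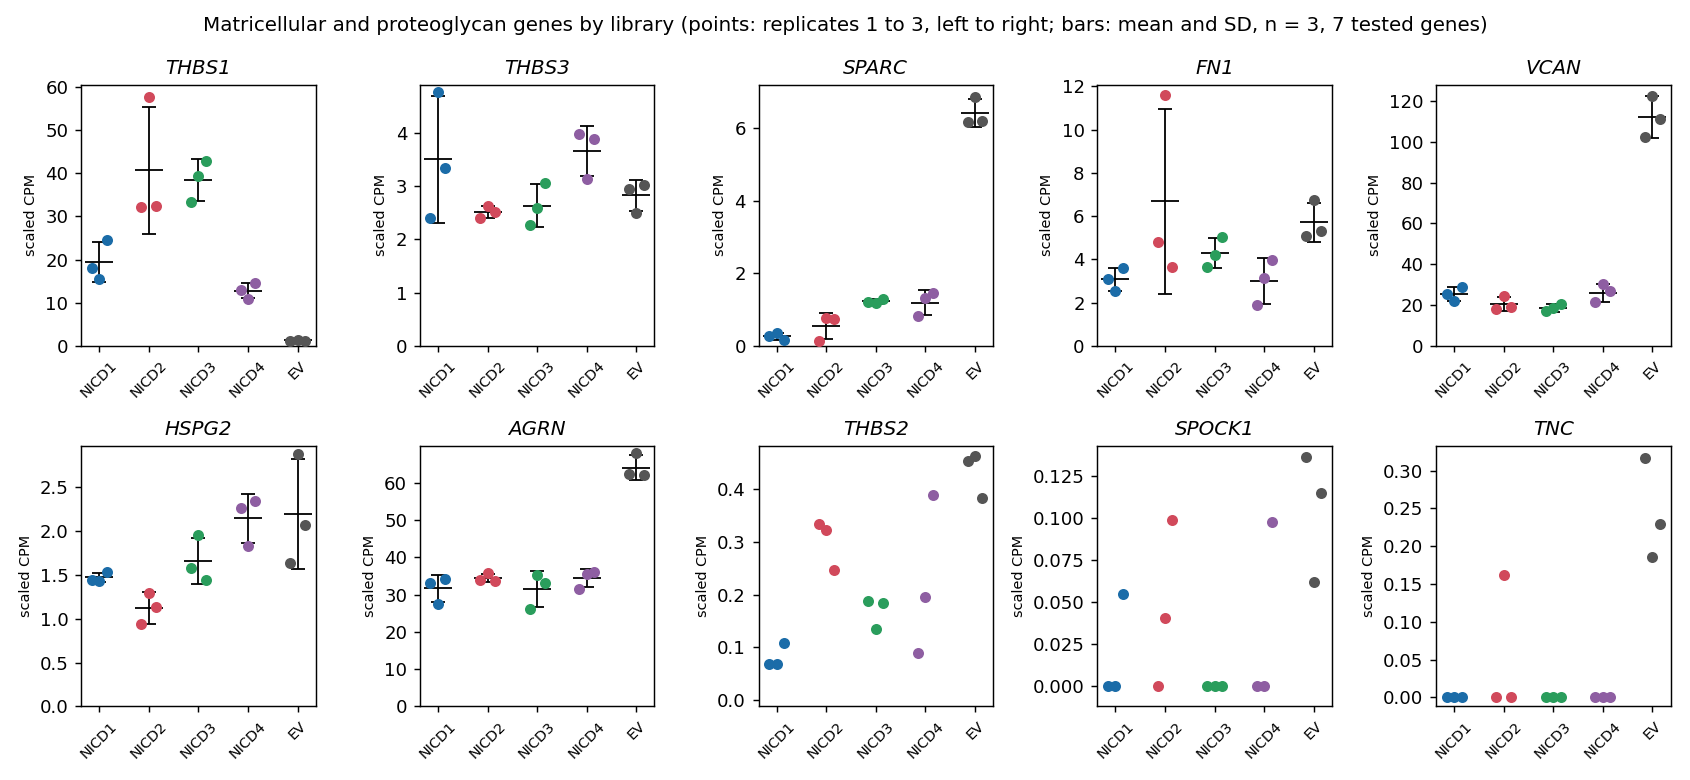
Scaled CPM of the 10 genes (y axis, linear, a separate scale for each gene) in the 3 libraries of each group (points), with mean and SD bars for the 7 tested genes. All THBS1 points of NICD libraries lie above the EV points, and all SPARC, VCAN and AGRN points of NICD libraries lie below them.

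Of the 7 tested genes, THBS1 rose in all 4 NICD groups, SPARC, VCAN and AGRN fell in all 4, FN1 fell in NICD1 and NICD4, HSPG2 fell in NICD1 and NICD2, and THBS3 was not called. In NICD1, 1 gene was higher and 5 were lower, where 35.6% of all tested genes were called higher and 39.8% lower. In NICD2, 1 was higher and 4 were lower (29.6% and 30% of all genes), in NICD3, 1 and 3 (33% and 36.2%), and in NICD4, 1 and 4 (37.3% and 43.6%). With calls this frequent over all genes, a call alone does not set these genes apart. The median change of the 7 was -0.89 with NICD1, -0.89 with NICD2, -0.41 with NICD3 and -0.90 with NICD4, and that of all tested genes was -0.08, -0.03, -0.07 and -0.12 in the same order. All 3 libraries lay on 1 side of all EV libraries for 6 of the 7 genes in NICD1 (80.5% of all genes), 5 in NICD2 (69.2%), 5 in NICD3 (79.1%) and 6 in NICD4 (81.7%). Over all genes, 23.1% were called higher in all 4 NICD groups, as THBS1 was, and 23.3% lower in all 4, as SPARC, VCAN and AGRN were. The 4 comparisons share the EV libraries.

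Changes over all genes followed GC content. In the fifth of genes with the lowest transcript GC content (up to 41.6%) the median change was -0.67 with NICD1, -0.33 with NICD2, -0.54 with NICD3 and -0.87 with NICD4. In the fifth with the highest (58.8% and over) it was 0.70, 0.37, 0.56 and 0.99 in the same order. The 10 genes span most of this range, from 42.9% for VCAN to 67.5% for AGRN. Values with that trend removed are given beside the changes against EV that they alter most. After its removal 1 of the 7 genes was higher in every NICD group (32.3%, 27.1%, 30.6% and 35.1% of all genes in NICD1 to NICD4), and 5, 4, 4 and 5 were lower (33.1%, 26.8%, 30.5% and 35.3% of all genes). Scaling by library totals alone lowered the median change of all genes by 0.28 to 0.54. It gave 3308 genes higher and 8486 lower in NICD1, 2847 and 6661 in NICD2, 3014 and 8258 in NICD3, and 3651 and 8867 in NICD4. In the same scaling 5 of the 7 genes were lower in NICD3 and 5 in NICD4.

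**Figure D2:**
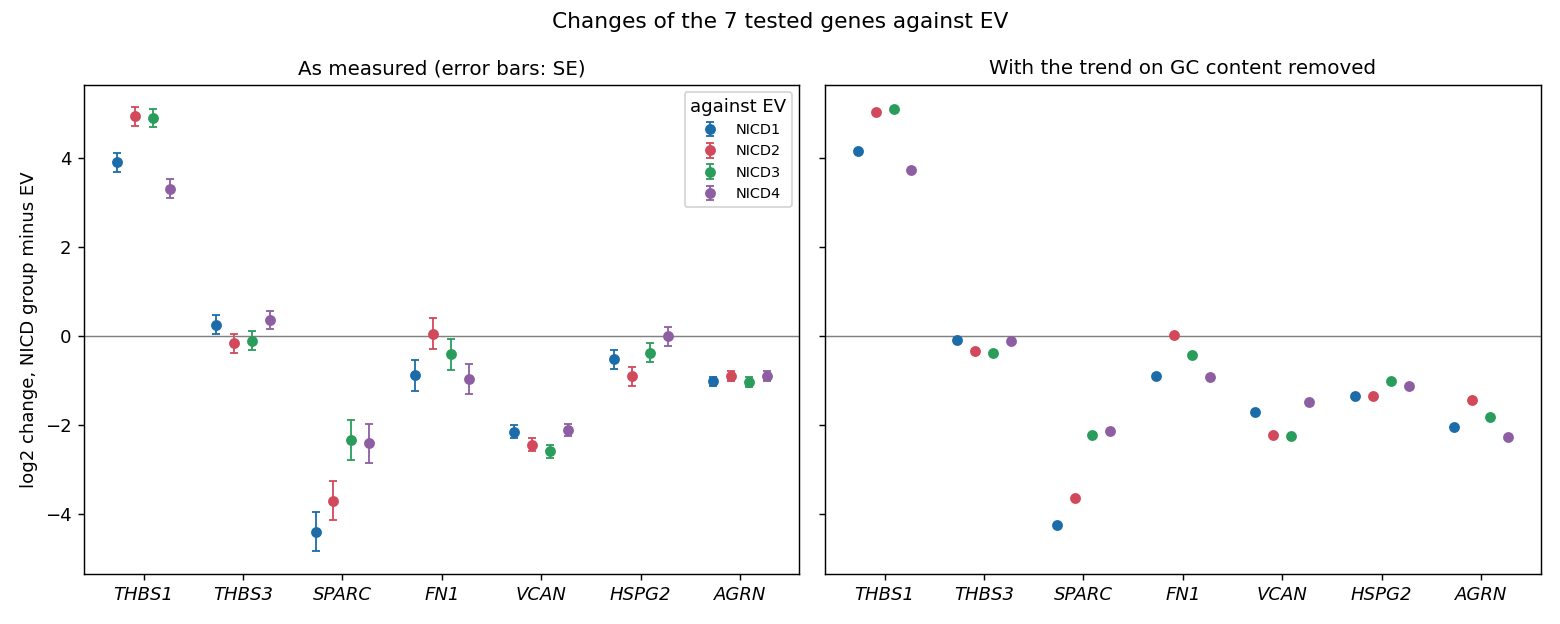
Log2 change against EV (y axis) of the 7 tested genes in each NICD group, as measured with SE bars (left panel) and with the trend on GC content removed (right panel). THBS1 stays near the top and SPARC near the bottom in both panels, whereas HSPG2 in NICD4 is -0.00 on the left and -1.12 on the right.

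THBS1, which binds CD47 and CD36 and activates latent TGF-beta, showed the largest change of the 7 genes in NICD2, NICD3 and NICD4 (chr15:39873280-39891667, GRCh37, plus strand). It had 18.1, 15.6 and 24.6 CPM in NICD1 libraries, 32.2, 57.7 and 32.3 in NICD2, 33.3, 39.3 and 42.9 in NICD3, and 12.8, 10.95 and 14.5 in NICD4, against 1.18, 1.30 and 1.19 CPM in EV libraries. The lowest NICD library was thus far above the highest EV library, and the NICD4 libraries lay below those of every other NICD group. The rise was 3.91 ± 0.21 in NICD1 (adjusted p = 1.49e-09), 4.94 ± 0.21 in NICD2 (adjusted p = 1.87e-10), 4.91 ± 0.21 in NICD3 (adjusted p = 1.73e-10) and 3.32 ± 0.21 in NICD4 (adjusted p = 6.72e-09), limma's test over all genes. These are 15.0-, 30.8-, 30.1- and 9.99-fold rises. Of the 15122 genes, 45 had a larger rise with NICD1, 14 with NICD2, 19 with NICD3 and 136 with NICD4. With the GC trend removed the rise was 4.16, 5.05, 5.11 and 3.74 in the same order.

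THBS2, a close relative of THBS1 that is known to restrain blood vessel growth, did not pass the filter on low counts (chr6:169615875-169654139, minus strand). It had 1, 1 and 2 reads in NICD1 libraries, 5, 8 and 5 in NICD2, 3, 3 and 5 in NICD3, and 1, 3 and 4 in NICD4, against 10, 15 and 10 reads in EV libraries. No NICD library reached the lowest EV count, although in CPM the highest NICD4 library (0.389) slightly exceeded the lowest EV library (0.383). Summed over libraries and scaled for depth, EV exceeded NICD1 by a ratio of 5.16 (95% exact binomial interval 1.84 to 20.0), NICD2 by 1.45 (0.799 to 2.72), NICD3 by 2.57 (1.28 to 5.61) and NICD4 by 1.99 (0.908 to 4.97). Such intervals cover counting error only. With no filter on low counts, limma over 31352 genes called THBS2 lower in NICD1 (-1.85, adjusted p = 0.00105) and NICD3 (-1.13, adjusted p = 0.037), but not in NICD2 (-0.46, adjusted p = 0.429) or NICD4 (-0.95, adjusted p = 0.0685). In that fit 24.9%, 18%, 22% and 27.3% of all genes were called lower in NICD1 to NICD4.

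THBS3, which forms pentamers like cartilage oligomeric matrix protein, did not pass the test in any NICD group (chr1:155165379-155178842, minus strand). It had 2.40, 4.77 and 3.33 CPM in NICD1 libraries, 2.40, 2.62 and 2.52 in NICD2, 2.27, 2.58 and 3.06 in NICD3, and 3.98, 3.13 and 3.89 in NICD4, against 2.94, 2.50 and 3.02 CPM in EV libraries. NICD1 to NICD3 overlapped EV, and the 3 NICD4 libraries lay just above it. The difference was 0.26 in NICD1 (95% interval -0.19 to 0.71), -0.16 for NICD2 (-0.61 to 0.29), -0.10 for NICD3 (-0.55 to 0.35) and 0.37 for NICD4 (-0.08 to 0.82). The adjusted p was 0.276, 0.528, 0.673 and 0.119 in the same order, from limma. Without the GC trend the differences were -0.09, -0.34, -0.38 and -0.10 in NICD1 to NICD4, none of them called. Scaled by library totals alone, THBS3 was called lower in NICD3 (-0.51, adjusted p = 0.0357) and its sign was also negative in NICD1 (-0.19) and NICD4 (-0.17). Without NICD1 replicate 1 the difference in NICD1 was 0.50 and called (adjusted p = 0.0351). THBS3 overlaps MTX1 on the opposite strand (7803 reads over all libraries) and THBS3-AS1 (15 reads), and the protocol names no strand-specific step, so reads of the shared stretch cannot be told apart.

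SPARC, a collagen-binding glycoprotein of remodelling tissue, fell in all 4 groups (chr5:151040657-151066726, minus strand). It had 0.275, 0.341 and 0.164 CPM in NICD1 libraries, 0.134, 0.767 and 0.740 in NICD2, 1.196, 1.18 and 1.29 in NICD3, and 0.813, 1.30 and 1.46 in NICD4, against 6.16, 6.85 and 6.20 CPM in EV libraries. The NICD1 libraries rest on 3 to 5 reads each, and no NICD library came near EV. SPARC changed by -4.40 ± 0.44 in NICD1 (adjusted p = 7.99e-07), by -3.70 ± 0.44 in NICD2 (adjusted p = 7.58e-06), by -2.34 ± 0.44 in NICD3 (adjusted p = 0.000303) and by -2.41 ± 0.44 in NICD4 (adjusted p = 0.000147). EV was thus 21.1, 12.99, 5.06 and 5.32 times as high as NICD1 to NICD4 on the fitted scale. Larger falls were seen in 254 genes with NICD1, 348 with NICD2, 629 with NICD3 and 839 with NICD4. In bulk RNA, fewer cells that express a gene and less RNA per cell cannot be told apart.

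Summed levels of stromal and of endothelial markers were also lower in NICD libraries. The 11 fibroblast and stromal markers summed to 12.95 to 16.3 CPM in NICD libraries, against 42.5 to 46.6 CPM in EV libraries. Of the 5 that were tested, 3 or 4 fell and 1 rose in each NICD group. VIM made up much of this, with means of 0.625, 1.84, 2.19 and 1.06 CPM in NICD1 to NICD4, against 21.7 CPM in EV. COL3A1 had no read in NICD1, NICD2 and NICD3 and 0.0324 CPM in NICD4, against 5.36 CPM in EV, and DCN stayed at or below 0.0843 CPM in every group. The 8 endothelial markers, 6 of which are in the table, summed to 0.589 to 2.35 CPM in NICD libraries, against 17.3 to 18.8 CPM in EV libraries. Only 2 endothelial markers were tested. Of these, 2 fell in NICD1, NICD2 and NICD3, and 1 in NICD4. Over all tested genes, 30% to 43.6% were called lower in an NICD group and 29.6% to 37.3% higher. Those shares apply to each marker list here, and COL3A1 passed the filter through EV alone. The 7 of 8 blood cell markers in the table summed to 6.78 to 12.5 CPM in NICD libraries, against 12.8 to 13.6 CPM in EV libraries. Single blood cell markers did not share that direction. Of the 5 tested, 3, 3, 2 and 3 rose in NICD1 to NICD4, and 1, 2, 2 and 2 fell. Their median change was 0.91, 0.87, 0.72 and 1.56 in the same order. Whether any stromal or endothelial cells were present, and whether they had a part in the falls of SPARC and VCAN, was not tested.

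SPOCK1 (testican 1), a proteoglycan with a SPARC-like calcium-binding module, was barely detected (chr5:136310987-136934068, minus strand). It had 0, 0 and 1 reads in NICD1 libraries, 0, 1 and 2 in NICD2, 0 in all 3 of NICD3, and 0, 0 and 1 in NICD4, against 3, 2 and 3 reads in EV libraries. NICD2 replicate 3 equalled the lowest EV count. The ratio of EV to NICD1 was 4.72 (95% exact binomial interval 0.633 to 209), to NICD2 1.99 (0.477 to 11.6) and to NICD4 3.64 (0.488 to 162). With NICD3 set at a floor of 3 reads over the group, EV was 2.15 times as high. That ratio leaves out the counting error of the EV reads and is no bound. With no filter on low counts, limma called SPOCK1 lower in NICD3 (adjusted p = 0.0177) and not in NICD1 (adjusted p = 0.0575), NICD2 (adjusted p = 0.277) or NICD4 (adjusted p = 0.0965).

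TNC, a branched glycoprotein of developing and injured tissue that is often abundant in glioma, was not detected in most NICD libraries (chr9:117782806-117880536, minus strand). It had 0 reads in every library of NICD1, NICD3 and NICD4 and 0, 4 and 0 reads in NICD2, against 7, 6 and 6 reads in EV libraries. All 12 NICD libraries were below all 3 EV libraries. With each group without TNC reads set at 3 reads, EV was 3.74, 5.12 and 2.88 times as high as NICD1, NICD3 and NICD4. These ratios leave out the counting error of the EV reads. The ratio of EV to NICD2 was 3.54 (95% exact binomial interval 1.18 to 14.3). All 4 reads of NICD2 came from replicate 2. The fit with no filter on low counts called TNC lower in NICD1 to NICD4 (adjusted p = 0.000209, 0.00517, 0.000255 and 0.000164), and its fitted changes are no bound.

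FN1, the fibronectin that cells bind through integrin alpha-5 beta-1, fell in NICD1 and NICD4 (chr2:216225163-216300895, minus strand). It had 3.09, 2.52 and 3.60 CPM in NICD1 libraries, 4.81, 11.6 and 3.65 in NICD2, 3.65, 4.21 and 5.01 in NICD3, and 1.90, 3.13 and 3.99 in NICD4, against 5.07, 6.73 and 5.32 CPM in EV libraries. NICD1, NICD3 and NICD4 lay below EV, while in NICD2 replicate 2 was above all EV libraries and the other 2 were below them. The change was -0.89 ± 0.35 in NICD1 (adjusted p = 0.0303), 0.05 ± 0.35 in NICD2 (adjusted p = 0.901), -0.41 ± 0.35 in NICD3 (adjusted p = 0.303) and -0.97 ± 0.35 in NICD4 (adjusted p = 0.0181). These calls were fragile. In NICD1 the call was lost without NICD1 replicate 1 (-0.90, adjusted p = 0.059), NICD1 replicate 2 (-0.75, adjusted p = 0.0962), EV replicate 2 (-0.76, adjusted p = 0.102) or EV replicate 3 (-0.93, adjusted p = 0.0524). In NICD4 it was lost without NICD4 replicate 1, the library with conflicting labels (-0.68, adjusted p = 0.0887), or EV replicate 2 (-0.83, adjusted p = 0.0689). In NICD2 the change was -0.43 without NICD2 replicate 2 (adjusted p = 0.184). Fitted on the 6 NICD3 and EV libraries only, the same change in NICD3 (-0.41) was called (adjusted p = 0.0422).

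NICD2 replicate 2 also held the highest THBS1 value and the TNC reads. TGFBI, a matrix protein named here after its values were seen, had 1, 99 and 2 reads in the NICD2 libraries and 0 to 3 reads in every other library. It was 1 of 31352 genes with at least 20 reads and at least 4 times the CPM of both partner libraries in that library. NICD4 replicate 2 also had 1 such gene and every other library had none. Over tested genes, NICD2 replicate 2 differed from replicates 1 and 3 by a chi-square of 17.1 and 21.4 per gene. Replicates 1 and 3 of NICD2 differed by 1.29, and pairs within the other groups by 2.5 to 42.0.

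VCAN, a hyaluronan-binding proteoglycan of loose and provisional matrix, fell in all 4 groups (chr5:82767284-82878122, plus strand). It had 25.4, 21.96 and 28.8 CPM in NICD1 libraries, 18.1, 24.6 and 19.2 in NICD2, 16.9, 18.5 and 20.5 in NICD3, and 21.3, 30.1 and 26.8 in NICD4, against 102, 123 and 112 CPM in EV libraries. The highest NICD library stayed far below the lowest EV library. VCAN changed by -2.15 ± 0.15 in NICD1 (adjusted p = 1.61e-08), by -2.45 ± 0.15 in NICD2 (adjusted p = 4.61e-09), by -2.59 ± 0.15 in NICD3 (adjusted p = 2.72e-09) and by -2.11 ± 0.15 in NICD4 (adjusted p = 1.57e-08). After the GC correction it was -1.71, -2.23, -2.24 and -1.48 in the same order. These are falls to 0.226, 0.183, 0.166 and 0.231 of the EV level before that removal.

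AGRN, which clusters acetylcholine receptors at the nerve-muscle junction and binds dystroglycan in epithelia, fell by nearly the same amount in every group (chr1:955503-991496, plus strand). It had 33.1, 27.6 and 34.2 CPM in NICD1 libraries, 33.8, 35.7 and 33.7 in NICD2, 26.1, 35.4 and 33.3 in NICD3, and 31.6, 35.5 and 36.1 in NICD4, against 62.3, 67.9 and 62.1 CPM in EV libraries. NICD libraries of all groups overlapped each other and lay below EV. The change was -1.02 ± 0.11 in NICD1 (adjusted p = 1.66e-06), -0.89 ± 0.11 in NICD2 (adjusted p = 1.05e-05), -1.03 ± 0.11 in NICD3 (adjusted p = 1.93e-06) and -0.90 ± 0.11 in NICD4 (adjusted p = 3.43e-06). AGRN is the most GC-rich of the 10 genes, and with the trend removed its change was -2.05, -1.44, -1.82 and -2.27 in the same order.

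HSPG2, the perlecan of basement membranes, fell in NICD1 and NICD2 (chr1:22148738-22263790, minus strand). It had 1.44, 1.43 and 1.53 CPM in NICD1 libraries, 0.934, 1.29 and 1.13 in NICD2, 1.57, 1.95 and 1.44 in NICD3, and 2.26, 1.825 and 2.33 in NICD4, against 1.63, 2.87 and 2.07 CPM in EV libraries. NICD1 and NICD2 lay below EV, NICD3 and NICD4 overlapped it, and the EV libraries themselves spread widely. The change was -0.52 ± 0.21 in NICD1 (adjusted p = 0.0381), -0.91 ± 0.21 in NICD2 (adjusted p = 0.00224), -0.37 ± 0.21 in NICD3 (95% interval -0.83 to 0.09, adjusted p = 0.139) and -0.00 ± 0.21 in NICD4 (-0.46 to 0.46, adjusted p = 0.988). The call in NICD1 was lost without any NICD1 library (-0.55 to -0.51, adjusted p = 0.0579 to 0.0817), without EV replicate 2 (-0.31, adjusted p = 0.212) or EV replicate 3 (-0.54, adjusted p = 0.0675), without the filter (adjusted p = 0.0782) and in a fit of the 6 libraries alone (adjusted p = 0.0628). Without EV replicate 1 HSPG2 was called in NICD3 (-0.55, adjusted p = 0.0397). After removal of the GC trend HSPG2 was called lower in every group, by -1.35, -1.34, -1.01 and -1.12 in NICD1 to NICD4 (adjusted p = 0.00092 or less).

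Per kilobase of exon, VCAN averaged 1.71, 1.39, 1.26 and 1.76 CPM in NICD1 to NICD4, against 7.56 in EV, and AGRN 2.94, 3.20, 2.93 and 3.20, against 5.96 in EV. THBS1 averaged 2.12, 4.45, 4.20 and 1.39 CPM per kilobase in NICD1 to NICD4, against 0.133 in EV. In EV the levels per kilobase thus ran from VCAN over AGRN, SPARC (1.33), THBS3 (0.611), FN1 (0.330), THBS1, HSPG2 (0.121), THBS2 (0.0675) and TNC (0.0253) to SPOCK1 (0.0167). The EV means of THBS1 and HSPG2 differed by less than the SD of HSPG2 (0.0347). In NICD2 and NICD3 THBS1 stood highest, above AGRN, although in NICD2 the SD of THBS1 (1.60) exceeds its difference from AGRN. In NICD1 and NICD4 AGRN stood highest.

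The NICD groups were also compared with each other. The F-test over the 4 NICD groups was called for THBS1 (adjusted p = 4.78e-05), SPARC (adjusted p = 0.00218), HSPG2 (adjusted p = 0.0127) and VCAN (adjusted p = 0.0223), 4 of 7 genes where 67.9% of all genes were called. It was not called for FN1 (adjusted p = 0.0511), THBS3 (adjusted p = 0.0819) or AGRN (adjusted p = 0.496). The VCAN call was lost without NICD3 replicate 1 (adjusted p = 0.0662), NICD3 replicate 2 (adjusted p = 0.0523) or NICD4 replicate 3 (adjusted p = 0.0505). FN1 was called without NICD2 replicate 3 (adjusted p = 0.0137) or NICD4 replicate 3 (adjusted p = 0.036), and THBS3 without NICD1 replicate 1 (adjusted p = 0.0147).

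**Figure D3:**
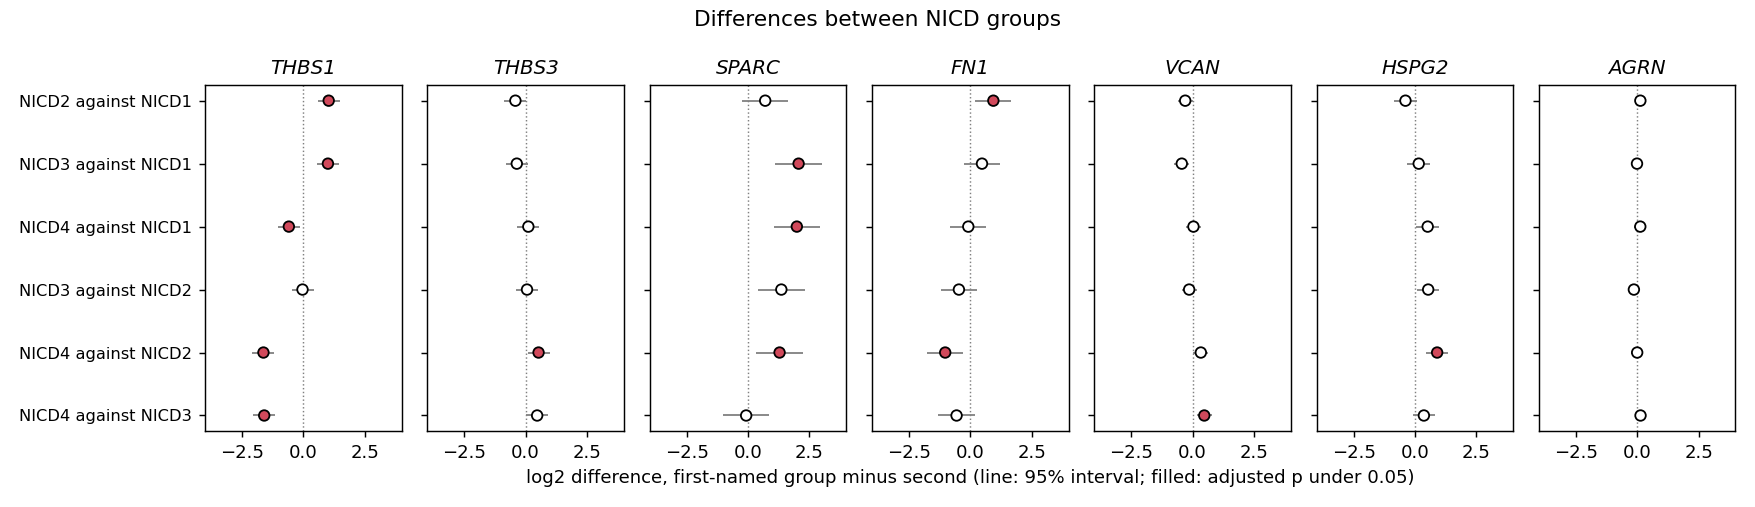
Log2 difference (x axis) of the 7 tested genes for each pair of NICD groups, first-named minus second-named, with 95% intervals as lines and filled points where the adjusted p was under 0.05. THBS1 is lower in NICD4 than in every other NICD group, and every AGRN interval includes 0.

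THBS1 was lower in NICD4 than in NICD2 (-1.62, adjusted p = 3.45e-05, with 63.5% of all genes called in that pair) and than in NICD3 (-1.59, adjusted p = 9.62e-05, with 49% called). It was higher in NICD2 than in NICD1 (1.03, adjusted p = 0.00256, with 37.2% called) and in NICD3 than in NICD1 (1.00, adjusted p = 0.00972, with 6.72% called). The call in NICD3 against NICD1 was lost without NICD1 replicate 2 (0.86, adjusted p = 0.0533) or NICD3 replicate 3 (0.92, adjusted p = 0.0562). In NICD4 against NICD1 the difference of -0.59 was just called (adjusted p = 0.0499, with 27.2% called). That call was lost when any of 13 of the 15 libraries was left out (-0.68 to -0.40, adjusted p up to 0.222), with median-of-ratios scaling (-0.56, adjusted p = 0.056) and with the GC trend removed (-0.44, adjusted p = 0.152). NICD3 and NICD2 did not differ in THBS1 beyond the spread (-0.03, 95% interval -0.48 to 0.42), in a pair with 15% of genes called.

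SPARC was higher in NICD3 than in NICD1 (2.06, adjusted p = 0.0117) and in NICD4 than in NICD1 (1.99, adjusted p = 0.00565). It was also higher in NICD4 than in NICD2 (1.29, adjusted p = 0.02), a call lost without NICD2 replicate 1 (0.59, adjusted p = 0.0887) or NICD4 replicate 3 (1.13, adjusted p = 0.0697). The call in NICD3 against NICD1 was lost without NICD3 replicate 3 (2.02, adjusted p = 0.051). NICD3 against NICD2 missed the threshold (1.36, 95% interval 0.41 to 2.31, adjusted p = 0.0518). NICD4 and NICD3 differed by -0.07 (-1.02 to 0.88). SPARC therefore fell less far against EV in NICD3 and NICD4 than in NICD1.

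VCAN was higher in NICD4 than in NICD3 (0.48, adjusted p = 0.015), which was lost without NICD3 replicate 1 (0.41, adjusted p = 0.0541) or NICD4 replicate 2 (0.36, adjusted p = 0.0545). With the GC trend removed it was 0.73 (adjusted p = 0.00166), and VCAN was then also higher in NICD4 than in NICD2 (0.72, adjusted p = 0.00112) and lower in NICD2 and NICD3 than in NICD1 (-0.52 each). HSPG2 was higher in NICD4 than in NICD2 (0.90, adjusted p = 0.00216), but by 0.19 with the GC trend removed (adjusted p = 0.487). AGRN differed in no pair, with intervals between -0.37 and 0.37. After the GC correction AGRN was higher in NICD2 than in NICD1 (0.62, adjusted p = 0.00119), lower in NICD3 than in NICD2 (-0.38, adjusted p = 0.0384) and lower in NICD4 than in NICD2 (-0.86, adjusted p = 3.41e-05) and NICD3 (-0.44, adjusted p = 0.00703). The order of the NICD groups for AGRN therefore depends on that correction.

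FN1 was higher in NICD2 than in NICD1 (0.94, adjusted p = 0.045) and lower in NICD4 than in NICD2 (-1.02, adjusted p = 0.0182), though the NICD4 and NICD2 libraries overlapped. Without NICD2 replicate 2 these were 0.45 (adjusted p = 0.242) and -0.53 (adjusted p = 0.109). The call of NICD2 against NICD1 was lost when any of 10 of the 15 libraries was left out (0.45 to 1.08) and without the GC trend (0.91, adjusted p = 0.0676), and that of NICD4 against NICD2 also without NICD4 replicate 1 (-0.73, adjusted p = 0.0892). THBS3 was higher in NICD4 than in NICD2 (0.53, adjusted p = 0.0396), but by 0.23 with the GC trend removed (adjusted p = 0.384). That call was also lost without any 1 NICD2 library (0.50 to 0.56, adjusted p = 0.0651 to 0.093) and without NICD4 replicate 1 or 3 (0.46 and 0.48, adjusted p = 0.111 and 0.1).

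Related genes were taken from 6 lists with 124 genes, of which 120 are in the table. In all 6 lists the counts are given beside the shares of all tested genes called. Of 7 tested matricellular relatives, none rose and 7 fell in NICD1 (35.6% and 39.8% of all genes), 1 rose and 6 fell in NICD2 (29.6% and 30%), none rose and 5 fell in NICD3 (33% and 36.2%), and none rose and 7 fell in NICD4 (37.3% and 43.6%). Their median change was -1.44, -1.24, -1.24 and -0.82 in NICD1 to NICD4, and 5 of the 7 fell in all 4 groups, against 23.3% of all genes. SPARCL1 (1.81 CPM in EV, 0.161 CPM or less in NICD groups) and CCN6 (0.722 and 0.106 CPM or less) passed the filter through EV alone. They could therefore only be called lower, and part of this count was fixed by the filter. Among genes named below, the same holds for SRGN, ITGA9, ADAMTS1 and FBN1. HAS2, with no EV read, could only be called higher. The gene that rose in NICD2 was CCN2, a CCN family growth factor partner named after its values were seen (0.49 in NICD2, adjusted p = 0.013, against -0.52 in NICD1 and -0.65 in NICD4). SPP1 (osteopontin), also named after its values were seen, did not pass the filter. It had 1, 32, 9 and 2 reads in NICD1 to NICD4, against 2 reads in EV, and the ratio of NICD2 to EV was 21.5 (95% exact binomial interval 5.48 to 185) and of NICD3 to EV 5.57 (1.15 to 53.0). SPARCL1, the closest relative of SPARC, had 2, 10, 1 and 5 reads in NICD1 to NICD4, against 148 reads in EV, and the ratio of EV to NICD1 was 43.6 (95% exact binomial interval 11.9 to 364). CCN6, a CCN family protein, changed by -3.08, -2.51, -2.84 and -2.47, and by -2.46, -2.20, -2.34 and -1.64 after the GC correction. TNXB, a tenascin of connective tissue, changed by -1.44, -1.29, -1.24 and -0.80, and by -2.31, -1.75, -1.92 and -1.98 after the GC correction. THBS4, a further thrombospondin, averaged 0.738, 0.702, 0.679 and 1.01 CPM in NICD1 to NICD4, against 1.66 CPM in EV, a change of -1.15, -1.24, -1.25 and -0.73. The THBS4 call in NICD4 was lost without NICD4 replicate 3 (-0.48, adjusted p = 0.179) or any EV library (-0.76 to -0.67, adjusted p = 0.0658 to 0.102), and that of TNXB in NICD4 without NICD4 replicate 2 (-0.62, adjusted p = 0.0524) or EV replicate 2 (-0.66, adjusted p = 0.053).

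Of 15 tested genes of other proteoglycan core proteins, 8 rose and 3 fell in NICD1, 5 and 4 in NICD2, 7 and 3 in NICD3, and 8 and 4 in NICD4, beside 35.6%, 29.6%, 33% and 37.3% of all genes called higher and 39.8%, 30%, 36.2% and 43.6% called lower. After removal of the GC trend 4 rose and 4 fell in NICD1, 4 and 3 in NICD2, 3 and 3 in NICD3, and 4 and 3 in NICD4. The heparan sulfate proteoglycan GPC3 averaged 1.45, 1.90, 1.58 and 2.83 CPM in NICD1 to NICD4, against 0.705 CPM in EV, and rose by 0.98, 1.36, 1.11 and 1.91. The glypican GPC2 changed the other way, by -1.56, -1.40, -1.47 and -0.88, and by -2.18, -1.72, -1.96 and -1.74 after the GC correction. BCAN (brevican), a relative of versican in brain, rose by 1.42, 0.81, 1.00 and 1.74, and by 0.70, 0.44, 0.44 and 0.75 with the GC trend removed, when NICD2 and NICD3 were no longer called. BCAN is also among the astrocyte markers summed above. SRGN (serglycin), a proteoglycan of secretory granules, had 1, 5, 4 and 1 reads in NICD1 to NICD4, against 58 reads in EV.

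**Figure D4:**
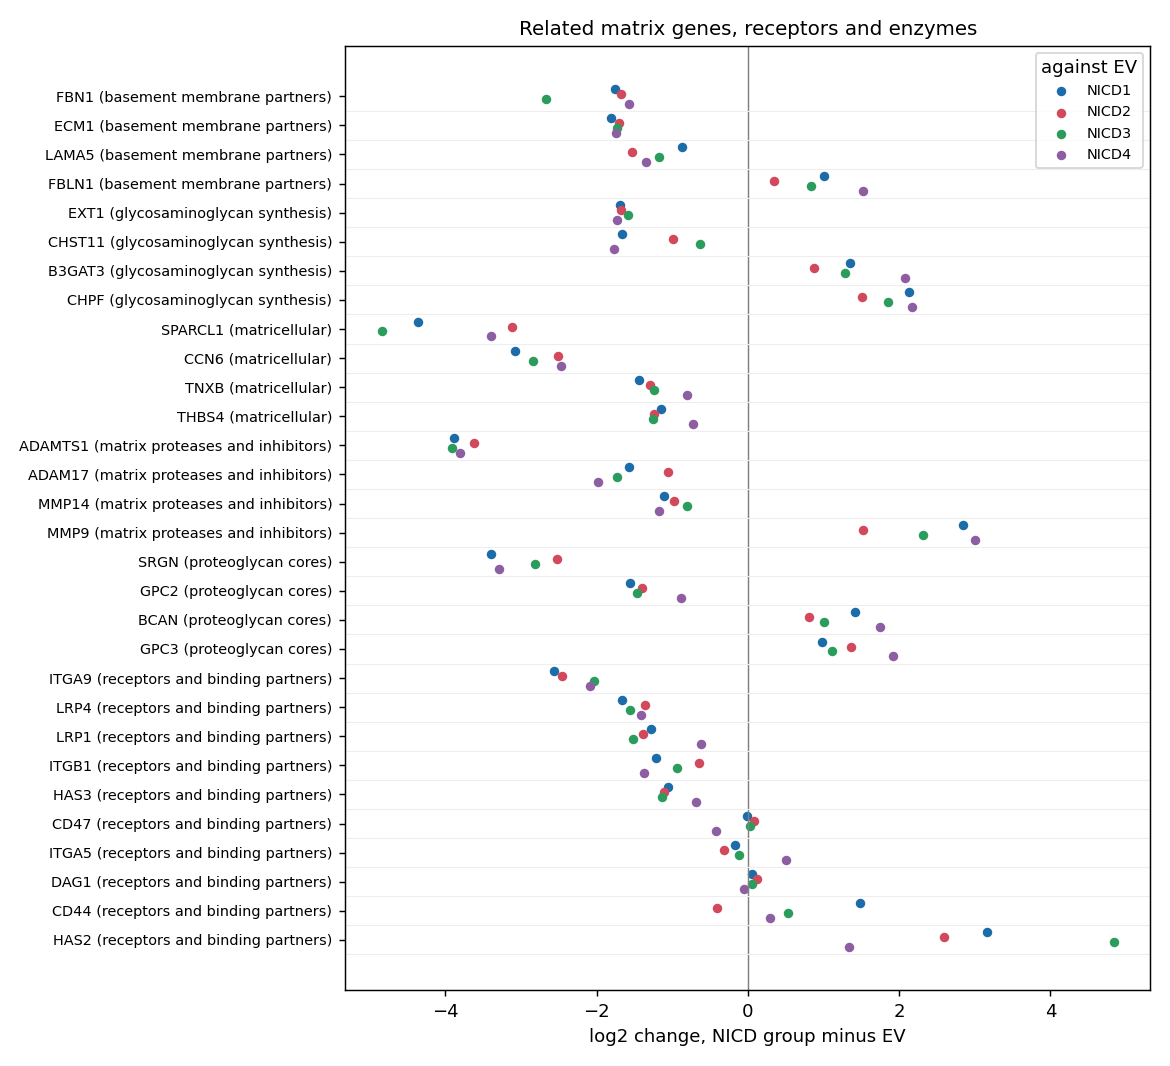
Log2 change against EV (x axis) of the tested related genes named in the text, by list (y axis), with 1 point for each NICD group. Genes called in the same direction in all 4 groups were chosen first, so the side of 0 on which most of them lie was fixed by that choice, and CCN2, which rose in NICD2, is not plotted. The fitted values of HAS2 are no bound, since EV had no read.

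A further list held receptors and other binding partners of these proteins, and hyaluronan synthases. Of its 16 tested genes, 5 rose and 7 fell in NICD1 (35.6% and 39.8% of all genes), 3 and 9 in NICD2 (29.6% and 30%), 4 and 7 in NICD3 (33% and 36.2%), and 6 and 6 in NICD4 (37.3% and 43.6%). CD47, the thrombospondin receptor, changed by -0.01, 0.08 and 0.03 in NICD1 to NICD3, where it was not called, and by -0.42 in NICD4 (adjusted p = 0.00165). Without the GC trend the CD47 change was 0.69, 0.42, 0.59 and 0.51 in NICD1 to NICD4, called in the other direction in NICD4 and called in the others as well. CD36, the other thrombospondin receptor, was too low to be tested, with 0.0364 to 0.0786 CPM in NICD groups, against 0.168 CPM in EV. The fibronectin receptor subunit ITGB1 averaged 66.6, 99.3, 81.0 and 60.4 CPM in NICD1 to NICD4, against 155 CPM in EV, and changed by -1.22, -0.64, -0.93 and -1.37. Its partner ITGA5 was called in NICD4 alone (0.50, adjusted p = 0.0172), lost without NICD4 replicate 1 (0.29, adjusted p = 0.106), and stood at -0.15 with the GC trend removed, when NICD1, NICD2 and NICD3 were called lower (-0.65, -0.56 and -0.50). Scaled by library totals alone it was -0.04 in NICD4. Changes of ITGB1 were -0.61, -0.34, -0.44 and -0.56 with the GC trend removed, and that in NICD2 was then not called (adjusted p = 0.0517).

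The agrin receptor LRP4 averaged 3.13, 3.85, 3.35 and 3.75 CPM in NICD1 to NICD4, against 9.99 CPM in EV, and changed by -1.66, -1.36, -1.56 and -1.41. The other agrin and perlecan receptor, dystroglycan (DAG1), was not called in any group, with changes of 0.06, 0.12, 0.05 and -0.05, although after the GC correction DAG1 was lower in NICD1 (-0.22) and NICD4 (-0.41). CD44, a receptor for hyaluronan that also binds versican, averaged 117, 31.6, 60.8 and 51.6 CPM in NICD1 to NICD4, against 41.9 CPM in EV. It rose in NICD1 (1.48, adjusted p = 4.72e-09), NICD3 (0.53, adjusted p = 0.000104) and NICD4 (0.29, adjusted p = 0.00763) and fell in NICD2 (-0.41, adjusted p = 0.00139). Scaled by library totals alone, CD44 changed by 0.12 in NICD3 (adjusted p = 0.438) and -0.25 in NICD4 (adjusted p = 0.0919). After the GC correction the CD44 changes were 1.76, -0.28, 0.75 and 0.74. LRP1, which takes up thrombospondins from the matrix, changed by -1.28, -1.39, -1.52 and -0.62, the last lost without EV replicate 2 (-0.49, adjusted p = 0.0588), and by -1.84, -1.67, -1.97 and -1.39 after the GC correction. ITGA9, an integrin subunit that binds tenascin C, changed by -2.56, -2.46, -2.03 and -2.09.

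HAS2, which makes the hyaluronan that versican binds, had no read in EV. It had 21, 19, 104 and 5 reads in NICD1 to NICD4. With EV set at a floor of 3 reads, HAS2 was 11.9-, 8.50-, 42.9- and 3.66-fold higher in the same order. These ratios leave out the counting error of the NICD reads. Every NICD1, NICD2 and NICD3 library had HAS2 reads, and NICD4 had 0, 4 and 1. The HAS2 call in NICD4 was lost without NICD4 replicate 2 (adjusted p = 0.183), NICD4 replicate 3 (adjusted p = 0.0725) or any EV library (adjusted p = 0.0621 to 0.0653). HAS3, another hyaluronan synthase, changed by -1.06, -1.11 and -1.14 in NICD1 to NICD3, and by -0.68 in NICD4, where it was not called (adjusted p = 0.0887) except after the GC correction (-0.85, adjusted p = 0.045). The HAS3 call in NICD1 was lost without NICD1 replicate 2 (-0.72, adjusted p = 0.0824) or EV replicate 2 (-0.94, adjusted p = 0.0539), in NICD2 without NICD2 replicate 1 (-0.92, adjusted p = 0.0674) or EV replicate 2 (-0.99, adjusted p = 0.0596), and in NICD3 without NICD3 replicate 1 (-0.89, adjusted p = 0.0579).

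Of 27 tested genes that build the sugar chains of proteoglycans, 13 rose and 10 fell in NICD1 (35.6% and 39.8% of all genes), 9 and 9 in NICD2 (29.6% and 30%), 10 and 10 in NICD3 (33% and 36.2%), and 13 and 9 in NICD4 (37.3% and 43.6%). CHPF, a chondroitin polymerising factor, averaged 527, 340, 431 and 542 CPM in NICD1 to NICD4, against 119 CPM in EV, and rose by 2.13, 1.51, 1.85 and 2.17. With the GC trend removed the CHPF rise was 1.10, 0.96, 1.06 and 0.79. B3GAT3, which completes the linker that joins chains to the core, rose by 1.35, 0.88, 1.28 and 2.08, and by 0.59, 0.48, 0.69 and 1.04 after the GC correction. EXT1, which elongates heparan sulfate, averaged 18.3, 18.4, 19.5 and 17.8 CPM in NICD1 to NICD4, against 58.8 CPM in EV, and changed by -1.69, -1.67, -1.59 and -1.73, or by -1.30, -1.48, -1.28 and -1.16 after the GC correction. CHST11, a chondroitin sulfotransferase, changed by -1.66, -0.99, -0.63 and -1.77.

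Of 15 tested matrix proteases and inhibitors, 5 rose and 7 fell in NICD1 (35.6% and 39.8% of all genes), 5 and 5 in NICD2 (29.6% and 30%), 6 and 6 in NICD3 (33% and 36.2%), and 6 and 6 in NICD4 (37.3% and 43.6%). ADAMTS1, a protease that cleaves versican, had 1, 2, 1 and 1 reads in NICD1 to NICD4, against 91 reads in EV, and the ratio of EV to NICD1 was 53.7 (95% exact binomial interval 9.39 to 2143). MMP9 rose by 2.84, 1.52, 2.31 and 3.00, and the membrane-bound collagenase MMP14 changed by -1.10, -0.98, -0.81 and -1.17. After the GC correction these were 2.15, 1.16, 1.77 and 2.06 for MMP9, and -1.59, -1.22, -1.19 and -1.84 for MMP14. ADAM17, a sheddase, changed by -1.57, -1.06, -1.73 and -1.99, and by -1.09, -0.82, -1.35 and -1.31 after the GC correction. Its call in NICD2 was lost without NICD2 replicate 1 or 3 (-0.96 and -0.87, adjusted p = 0.0999 and 0.125), EV replicate 2 or 3 (-0.80 and -1.01, adjusted p = 0.151 and 0.0866) and with the GC trend removed (-0.82, adjusted p = 0.0993).

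Of 9 tested basement membrane partners, 3 rose and 5 fell in NICD1 (35.6% and 39.8% of all genes), 3 and 5 in NICD2 (29.6% and 30%), 1 and 5 in NICD3 (33% and 36.2%), and 2 and 5 in NICD4 (37.3% and 43.6%). The laminin chain LAMA5, which agrin-bearing basement membranes contain, averaged 64.2, 40.3, 52.1 and 46.1 CPM in NICD1 to NICD4, against 118 CPM in EV, and changed by -0.86, -1.54, -1.18 and -1.34, or by -1.82, -2.04, -1.91 and -2.62 after the GC correction. ECM1, a perlecan-binding glycoprotein, changed by -1.81, -1.70, -1.73 and -1.74, and by -2.24, -1.92, -2.07 and -2.33 after the GC correction. The fibrillin gene FBN1 changed by -1.76, -1.68, -2.67 and -1.57. Except in NICD3 the FBN1 call was lost without single libraries, in NICD1 without NICD1 replicate 3 (-1.51, adjusted p = 0.0524) or EV replicate 2 (-1.49, adjusted p = 0.0594), in NICD2 without NICD2 replicate 2 (-1.39, adjusted p = 0.0815), EV replicate 2 (-1.41, adjusted p = 0.0926) or EV replicate 3 (-1.68, adjusted p = 0.0531), and in NICD4 without NICD4 replicate 2 (-1.12, adjusted p = 0.107) or EV replicate 2 (-1.30, adjusted p = 0.0871). After removal of the GC trend the FBN1 call in NICD4 was lost as well (-1.25, adjusted p = 0.0697). The fibulin FBLN1, which binds versican and fibronectin, rose by 1.01, 0.34, 0.83 and 1.52. Its call in NICD2 (adjusted p = 0.0488) was lost without NICD2 replicate 1 or 3, NICD1 replicate 1, NICD3 replicate 2, NICD4 replicate 3 or EV replicate 2 or 3 (0.30 to 0.34, adjusted p = 0.0573 to 0.142), with library totals alone (0.06, adjusted p = 0.62), with median-of-ratios scaling (0.34, adjusted p = 0.0574), with no filter on low counts (0.34, adjusted p = 0.0648), and with the GC trend removed (0.14). In the other groups the rise was 0.62, 0.52 and 1.00 after the GC correction.

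Across the 15 libraries, the gene whose log2 values were most like those of THBS1 was NTN4 (Pearson r = 0.988, over 14316 named genes), followed by PRSS23 (0.984) and GIRGL (0.982). For SPARC it was TEAD1 (0.932), for VCAN SEPTIN11 (0.996) and for AGRN DGKD (0.988). For FN1 it was TP53BP1 (0.916), for HSPG2 ADCY3 (0.893) and for THBS3 RPS27P6 (0.826). These are descriptions over libraries that fall into 5 groups, so a high value can come from similar group means alone.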

How the data were processed

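RNA sequencing of 15 libraries (3 per group) is given as 1 table, in which the authors deposited log2 of the raw reads per gene plus 1. Reads were aligned with TopHat2 2.0.6 to GRCh37 and counted with HTSeq, per the submitters' processing notes, and settings are not given in the sources used here. Whole reads were recovered from 100.0% of the values (tolerance 0.001), with 11630195 to 27704492 reads per library. Because the unit is log2, the test was limma and no negative-binomial count test was run. Voom on the recovered reads called 5472 genes higher and 6140 lower in NICD1, 4569 and 4946 in NICD2, 5111 and 5783 in NICD3, and 5692 and 6563 in NICD4.

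Reads were scaled by the trimmed mean of M values (trims 0.3 and 0.05, factors 0.793 to 1.323). A gene was tested if 3 or more libraries reached 0.548 CPM (10 reads at median depth) and its total was 15 reads or more. Log2(scaled reads + 1) was fitted with limma 3.58.1 (statmod 1.5.0, R 4.3.3), with 1 mean per group over all 15 libraries and a trended, robust variance prior. P-values were adjusted by Benjamini and Hochberg over all 15122 genes of a comparison, and the fit was tested on simulated data. The GC trend was a loess curve (span 0.3) over the 14737 genes with a known transcript GC content. Ratios of reads have 95% exact binomial intervals, and a group without reads was set at 3 reads. Ratios to that floor leave out the counting error of the other group. The closest libraries, NICD2 replicates 1 and 3, still differed beyond sampling noise (chi-square of 1.29 per gene), so none was counted as a duplicate. Counting noise alone would give about 1, and pairs within the other groups had 2.5 to 42.0. The NICD2 pair is thus close to counting noise, and the labels do not say whether it comes from separate cultures. Of the gene IDs, 25311 had a symbol and 6041 had none.

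The 10 genes and the lists were chosen with earlier results of these data known. Of each list, up to 4 genes called in the same direction in all 4 NICD groups with the largest mean change are named, plus CD47, CD36, CD44, DAG1, LRP4, ITGA5, ITGB1, HAS2 and HAS3 whatever their values. Alternatives covered the scaling, the filter, the added read, the libraries fitted, the replicate block and GC content.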

Additional observations from a re-analysis of the deposited data

Results flagged for a closer look

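The fitted change of FN1 against EV had opposite signs in different NICD groups, though in none of them did all 3 libraries lie above EV. FN1 was higher in NICD2 than in NICD1 by 0.94 on the log2 scale (limma, adjusted p = 0.045), and lower in NICD4 than in NICD2 by a difference of -1.02 (adjusted p = 0.0182). The change against EV was 0.05 in NICD2, where it was not called and 2 of 3 libraries lay below all EV libraries, -0.89 in NICD1 and -0.97 in NICD4. In NICD2 it was -0.43 without NICD2 replicate 2 and -0.23 with library totals alone. Without NICD2 replicate 2, whose FN1 level was 11.6 CPM, against 4.81 and 3.65 CPM in the other NICD2 libraries, the differences were 0.45 and -0.53 and neither was called.

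THBS3 also had a fitted change of opposite signs, not called in any group against EV, and was higher in NICD4 than in NICD2 by 0.527 (adjusted p = 0.0396). With the GC trend removed this difference was 0.23 (adjusted p = 0.384).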

How the results depend on the processing

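The calls of THBS1, SPARC, VCAN and AGRN against EV held in all 4 NICD groups under every alternative run: other scalings, no filter on low counts, added reads of 0.5 or 5, voom weights, fits of 6 libraries, the replicate block, removal of the GC trend, and leaving out each library. Scaling by library totals alone gave 3308, 2847, 3014 and 3651 genes higher in NICD1 to NICD4, 8258 genes lower in NICD3, and 5 of the 7 genes lower in NICD3. It gave THBS3 -0.19 in NICD1 and -0.17 in NICD4, FN1 -0.23 in NICD2, CD44 -0.25 and ITGA5 -0.0445 in NICD4. Median-of-ratios scaling gave HSPG2 0.0402 in NICD4. With the GC trend removed THBS3 was -0.0916 in NICD1 and -0.10 in NICD4, CD47 0.51 in NICD4 and ITGA5 -0.15 in NICD4. When each library was left out, the genes called in NICD1 ranged over 1 to 2 higher and 3 to 5 lower, FN1 in NICD2 over -0.43 to 0.39 and HSPG2 in NICD4 over -0.19 to 0.21. The causes of these shifts were not tested. Low read counts limit THBS2, SPOCK1, TNC and SPARC in NICD1.

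Replicate numbers recur in all groups. Deviations of same-numbered libraries from their group means correlated at r from -0.429 to 0.363. Libraries with different numbers were not set beside these, so whether the numbers pair the libraries is not settled. With the replicate block no call of the 7 genes against EV changed, the THBS1 difference of NICD4 from NICD1 had an adjusted p of 0.0511, and the F-test of FN1 was called (adjusted p = 0.0429). With the block and the GC trend removed, THBS3 was -0.0916 in NICD1 and -0.10 in NICD4, CD47 0.51 and ITGA5 -0.15 in NICD4.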
